A study of Mus musculus with 3 samples.

Results

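Mitochondria feed on pyruvate and glutamine, and the enzymes described here carry that carbon into and around the tricarboxylic acid (TCA) cycle. Pyruvate from glycolysis crosses the inner mitochondrial membrane through the MPC1-MPC2 carrier and is turned into acetyl-CoA by the pyruvate dehydrogenase complex, which kinases of the PDK family switch off and PDP phosphatases switch on. Citrate synthase joins acetyl-CoA to oxaloacetate, and the cycle then oxidizes citrate back to oxaloacetate, passing electrons to the respiratory chain. Glutamine carbon enters as alpha-ketoglutarate through glutamate dehydrogenase or the aspartate aminotransferases, a route that proliferating lymphocytes are known to use.

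The set held 31 genes chosen by name for these functions. All probe sets annotated to a single gene symbol, that symbol being in the set, were taken from single-colour Affymetrix arrays of 45101 probe sets. They numbered 72 and stood for 30 of the 31 genes, because no probe set used here carried Mpc2 as its only symbol. After a filter on dim probe sets 29 genes were tested among 12725 genes in all. The gene left out was Pdk4, whose probe set read 10.2 and 10.4 in the Rptor-null pools and 10.6 in the WT pool.

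The arrays held RNA of follicular regulatory T (Tfr) cells, Foxp3-expressing T cells that restrain the germinal centre reaction, sorted from spleens of C57BL/6 mice at day 8 after OVA immunization. The Rptor-null group had 2 arrays, each from a pool of 8 CD4-Cre, Rptor fl/fl mice, which the labels also call Rptor-/-. The WT group had 1 array from a pool of 4 wild-type mice, and the labels mention no Cre for it. Rptor codes for raptor, the scaffold that makes the kinase mTOR into mTORC1, and CD4-Cre acts in T lineage cells generally, not in Tfr cells alone. Ages and sexes were not given. The comparison asks how expression differs in Tfr cells when T lineage cells lack raptor. WT values have no replicate error, Rptor-null values are mean ± SD over n = 2, and p-values measure only the spread between the Rptor-null pools, which the WT array was assumed to share.

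Some features of the arrays bear on every value below. The 3′ to 5′ signal ratio was 1.94 and 2.58 in the Rptor-null pools, against 1.11 in the WT pool, for Gapdh, and 2.65 and 2.87, against 1.40, for beta-actin. Foxp3, the lineage factor, read 587 and 423 in the Rptor-null pools and 752 in the WT pool, and Cxcr5, a sort marker, read 374 and 392 against 713. Summed over 8 T cell markers the intensity was 26418 and 25933 in the Rptor-null pools and 39618 in the WT pool, with 4 lower and 0 higher past the test. Summed over 12 macrophage and myeloid markers it was 43675 and 50179 against 33181, with 8 higher and 0 lower. All 5 basophil markers were above WT in both pools, 4 of them past the test. All 10 cell cycle genes were lower past the test, as were 3 of 6 regulatory T cell and 3 of 4 follicular T cell markers. Of 4 B cell and 2 neutrophil markers none passed, and of 6 CD8 and NK cell markers 1 was lower. Their signal was present on the WT array too. Neutrophil markers summed to 14921 and 14633 in the Rptor-null pools and 15275 in the WT pool. For CD8 and NK cell markers the sums were 17833 and 20010 against 17109, and for B cell markers 767 and 876 against 1086. No marker was listed at 0. Rptor itself read 353 and 412 in the Rptor-null pools and 365 in the WT pool, a value that does not check the deletion, because the targeted exons and the probes' positions were not given. In pools of sorted cells, fewer cells of a type and less RNA per cell cannot be told apart.

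Among the 29 tested genes, 6 fell and 2 rose in Rptor-null cells. Mpc1, Idh3a, Idh3b, Suclg1, Fh1 and Got1 fell, and Idh1 and Glud1 rose. The 6 lower calls were 20.7% of the tested members, where 11.1% of all 12725 genes were called lower. The 2 higher calls were 6.9%, beside 3.93% of all genes. Many members are abundant: 14 of the 29 lay in the brightest of 5 equal bins of all genes tested, and in that bin 22% of all genes were called lower and 7.58% higher, beside 3 and 2 of the 14 members. Among bright genes the share of lower calls was therefore near that of all genes.

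The set leaned below WT by a small amount. In both Rptor-null pools 20 members were below WT and 5 above it, while 4 were split. All genes tested were below WT in both pools in 48.7% of cases and above it in 32.8%, and the member count below WT was 69%. The share of all genes rose among brighter ones: with the filter at the 60th percentile it was 57.7%, beside 20 of 26 tested members. After quantile normalization 12 of the 29 members were below WT in both pools, beside 40.9% of all genes. By this count the members no longer leaned further than genes at large, but their median was -0.042, beside -0.008 over all genes. Lower by at least 0.32 on the log2 scale in both pools were 5 members, or 17.2%, beside 16.3% of all genes, and 2 members were higher by as much in both, beside 6.22%. The median log2 difference was -0.13 over the members and -0.059 over all genes. In the brightest bin it was -0.16 for members and -0.12 for all genes. Both differences of every gene share the 1 WT array.

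**Figure D1:**
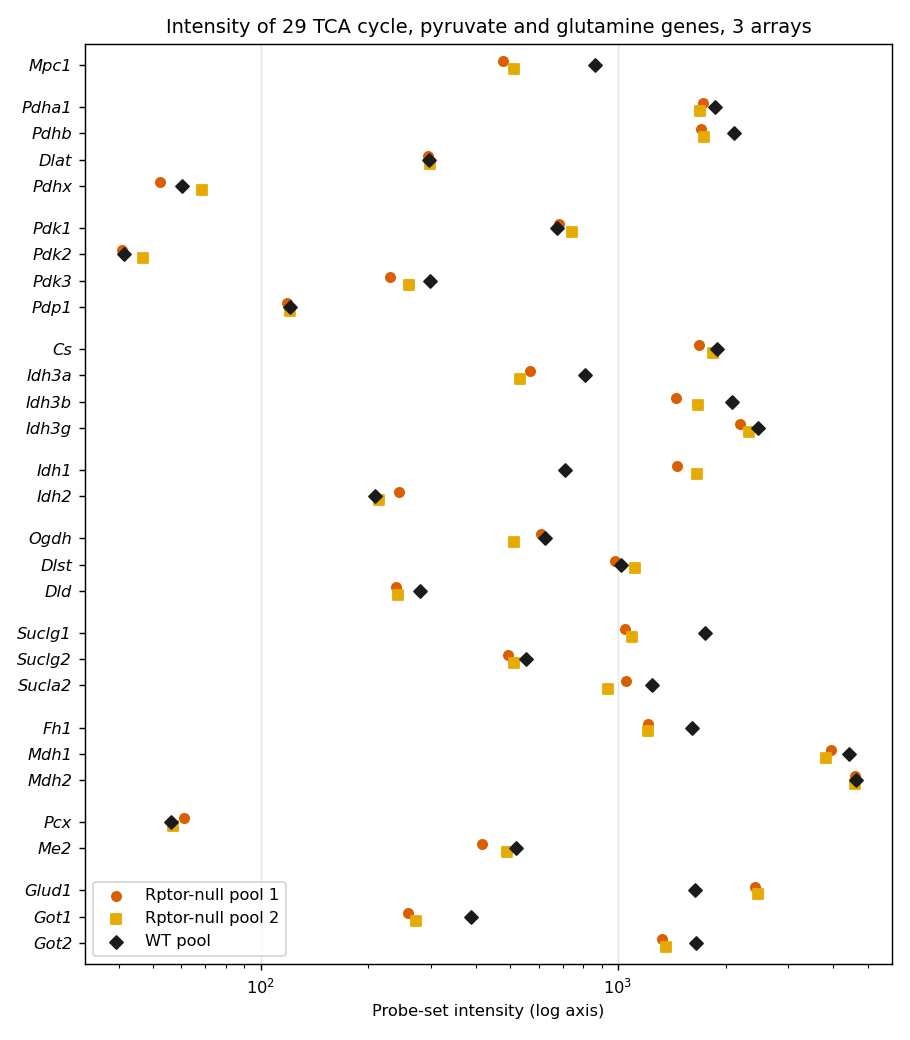
Probe-set intensity (log axis) of the 29 tested genes in Rptor-null pool 1, Rptor-null pool 2 and the WT pool, 1 row per gene, grouped by role from pyruvate entry at the top to glutamate enzymes at the bottom. Idh1 and Glud1 lie to the right of WT in both Rptor-null pools, and Mpc1 and Suclg1 lie clearly to its left.

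The promoter windows of the largest rise and the 2 largest falls are shown because these genes carry the comparison. Sequences are from RefSeq on GRCm38.p6, 250 bases before to 50 after an annotated start, 5′ to 3′, with CpG dinucleotides in capitals. Idh1 and Mpc1 have a further annotated start each, and the arrays do not tell which was used.
Idh1, chr1:65186430-65186729, minus strand: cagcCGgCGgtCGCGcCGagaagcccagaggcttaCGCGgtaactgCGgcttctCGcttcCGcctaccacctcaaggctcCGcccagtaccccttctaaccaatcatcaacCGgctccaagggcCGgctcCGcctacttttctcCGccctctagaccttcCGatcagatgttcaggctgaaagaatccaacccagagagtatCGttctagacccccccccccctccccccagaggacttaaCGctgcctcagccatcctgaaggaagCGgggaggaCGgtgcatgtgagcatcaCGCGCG
Mpc1, chr17:8283537-8283836, plus strand: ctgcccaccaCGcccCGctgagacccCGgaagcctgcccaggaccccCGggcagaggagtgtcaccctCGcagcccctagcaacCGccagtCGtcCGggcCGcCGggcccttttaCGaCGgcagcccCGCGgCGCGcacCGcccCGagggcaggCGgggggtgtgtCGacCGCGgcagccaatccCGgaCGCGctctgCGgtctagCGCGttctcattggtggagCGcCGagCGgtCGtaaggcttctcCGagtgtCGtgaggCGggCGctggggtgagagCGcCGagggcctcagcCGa
Suclg1, chr6:73248255-73248554, plus strand: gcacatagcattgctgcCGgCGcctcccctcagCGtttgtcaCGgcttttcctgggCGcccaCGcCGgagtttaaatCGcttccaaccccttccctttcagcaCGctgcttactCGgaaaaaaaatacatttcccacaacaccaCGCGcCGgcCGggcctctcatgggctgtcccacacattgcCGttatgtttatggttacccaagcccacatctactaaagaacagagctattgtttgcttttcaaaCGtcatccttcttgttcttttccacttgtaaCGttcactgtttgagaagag
These windows hold 23, 39 and 17 CpG dinucleotides. The table lists 38 windows for 28 of the 31 genes, and 36 of them held 10 or more CpG, or 94.7%, beside 43.5% of all 32851 windows. The palindromic core of the NRF1 motif was in no member window and in 0.971% of all windows, searched on both strands as exact letters. The ERR element TCAAGGTCA was in none and in 0.423%. The ETS core CCGGAAGT was in the window of Dlst alone, 1 of 28 member genes, beside 4.31% of all genes with a window. The E-box CACGTG was in windows of Pdk2, Ogdh and Pcx, 3 of 28 member genes, beside 8.09%. Idh3a, Me2 and Pdp1 had no window in the table and were not searched. None of the other 7 genes past the test was among these 4.

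The largest fall in the set was at the entry of pyruvate. Mpc1, a subunit of the mitochondrial pyruvate carrier, read 475 and 510.3 in the Rptor-null pools, against 865 in the WT pool. Both Rptor-null values lay far below WT and close to each other (493 ± 24.8). The fall was 1.73-fold (log2 difference -0.79 ± 0.12 SE, adjusted p = 0.00742). Mpc1 passed under all 10 other settings in which it was tested. Its only probe set is named _a_at, so Mpc1 had no value in the setting without such probe sets.

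No subunit of the pyruvate dehydrogenase complex passed the test. Pdha1, of the E1 component, read 1734 and 1699 in the Rptor-null pools and 1867 in the WT pool (adjusted p = 0.441). Its partner Pdhb read 1713 and 1744 against 2112, a log2 difference of -0.29 with a 95% interval from -0.50 to -0.071 (adjusted p = 0.0804). Dlat, the acetyltransferase core, read 294 and 298 against 297, so the pools spanned the WT value. Pdhx, which anchors E3 to the core, was dim, with 52.3 and 68.6 against 60.3. The intervals of Dlat and Pdhx reached from -0.32 to 0.31 and from -0.43 to 0.42, so changes of that size were not detectable here.

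The regulators of the complex did not pass either. Pdk1, a kinase induced under low oxygen, read 682 and 746 in the Rptor-null pools and 675 in the WT pool. Pdk2 read 40.8 and 46.9 against 41.5, close to the filter level of 34.8. Pdk3 was below WT in both pools, with 229 and 260 against 299 (log2 difference -0.27, adjusted p = 0.27). Pdp1, the phosphatase that reactivates the complex, read 119 and 121 against 121. Of these 4 genes 2 were below WT in both pools, 1 above and 1 split.

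In the first steps of the cycle, 2 subunits of the NAD-linked isocitrate dehydrogenase fell. Idh3a, the catalytic alpha subunit, read 567 and 530.4 in the Rptor-null pools and 809 in the WT pool, 1.46-fold lower (log2 difference -0.55 ± 0.12 SE, adjusted p = 0.0217). Idh3b, a beta subunit, read 1456 and 1670 against 2089, 1.34-fold lower (adjusted p = 0.0453). Idh3g, the gamma subunit, read 2197 and 2320 against 2466 (adjusted p = 0.415), and Cs, citrate synthase, 1685 and 1847 against 1892 (adjusted p = 0.567). All 4 were below WT in both pools. The Idh3a call rested on its brightest probe set: the mean of its 4 kept probe sets gave -0.14 (adjusted p = 0.528). Another setting left out probe sets named _a_at, _s_at or _x_at, called cross-matching below by name alone. It gave 0.0070 for Idh3a, from a dim probe set that read 39.3 and 43.7 against 41.2, close to the filter level of 34.8. The Idh3a call was also lost after quantile normalization (-0.43, adjusted p = 0.0699) and without a variance trend (adjusted p = 0.0555). The Idh3b call was lost under 6 of 10 other settings, with adjusted p from 0.0226 to 0.145.

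The NADP-linked isocitrate dehydrogenases lay above WT. Idh1, the cytosolic enzyme that makes NADPH from isocitrate, read 1463 and 1661 in the Rptor-null pools and 711 in the WT pool. Both pools were far above WT, and the mean was 1562 ± 140. This 2.17-fold rise (log2 difference 1.11 ± 0.11 SE, adjusted p = 0.00383) was the largest difference in the set. The second Idh1 probe set read 317 and 330.1 against 214, a smaller log2 difference of 0.56 that did not pass (adjusted p = 0.0594 over all kept probe sets). Idh2, the mitochondrial form, read 244 and 215 against 209, a log2 difference of 0.12 with an interval from -0.24 to 0.48 (adjusted p = 0.652). The myeloid markers, 8 of 12 higher with a median log2 difference of 0.75, were raised on the same arrays as Idh1, and their part in its rise was not tested.

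The oxoglutarate dehydrogenase complex, which converts alpha-ketoglutarate to succinyl-CoA, had no member past the test. Ogdh, its E1 component, read 607 and 510.5 in the Rptor-null pools and 623 in the WT pool. Dlst, the succinyltransferase core, read 981 and 1118 against 1020, on both sides of WT. Dld, the E3 subunit shared with pyruvate dehydrogenase, read 239 and 242 against 280 (log2 difference -0.21, adjusted p = 0.383).

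Succinyl-CoA ligase pairs a common alpha subunit with a beta subunit that sets the nucleotide used. Suclg1, the alpha subunit, read 1049 and 1095 in the Rptor-null pools and 1752 in the WT pool, with the pools close together and far below WT. It fell 1.63-fold (log2 difference -0.70 ± 0.10 SE, adjusted p = 0.00658), and it passed under all 11 other settings tested. Sucla2, the ADP-linked beta subunit, read 1056 and 935 against 1243 (log2 difference -0.32, interval -0.59 to -0.051, adjusted p = 0.109). Suclg2, the GDP-linked one, read 491 and 512 against 552 (adjusted p = 0.506).

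In the last steps fumarase fell. Fh1, which hydrates fumarate to malate, read 1213 and 1216 in the Rptor-null pools and 1610 in the WT pool, 1.32-fold lower (log2 difference -0.40 ± 0.097 SE, adjusted p = 0.0323). The call was lost after quantile normalization (-0.28, adjusted p = 0.119) and without a variance trend (adjusted p = 0.0993). Mdh1, the cytosolic malate dehydrogenase, read 3954 and 3821 against 4419 (adjusted p = 0.194). Mdh2, the mitochondrial form, read 4605 and 4611 against 4629.

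The side entries into the cycle differed little. Pcx, pyruvate carboxylase, was dim, with 61.0 and 56.7 in the Rptor-null pools and 55.9 in the WT pool. Its 4 further probe sets on the array are control probe sets, left out of the test, and read between 30.3 and 98.5. Me2, the mitochondrial malic enzyme, read 415 and 489 against 517 (log2 difference -0.19, adjusted p = 0.415). Its other kept probe sets went other ways. In the Rptor-null pools they read 274 and 335 against 257 in the WT pool (0.225), and 240 and 259 against 213 (0.211). The last read 162 and 138 against 150.5, on both sides of WT.

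Among the enzymes that link glutamate to the cycle, 1 rose and 1 fell. Glud1, glutamate dehydrogenase, read 2414 and 2466 in the Rptor-null pools and 1644 in the WT pool, a 1.48-fold rise (log2 difference 0.56 ± 0.091 SE, adjusted p = 0.00911). Got1, the cytosolic aspartate aminotransferase, read 259 and 272 against 388, a 1.44-fold fall (log2 difference -0.52 ± 0.14 SE, adjusted p = 0.0414). Got2, the mitochondrial form, read 1328 and 1366 against 1653, with a log2 difference of -0.29 (interval -0.52 to -0.067, adjusted p = 0.0862). The other Glud1 probe set, the brighter one in the WT pool, read 1865 and 1673 against 1688. Its log2 difference was 0.065 (adjusted p = 0.774 over all kept probe sets). The tested probe set was the brighter one only through its Rptor-null values, so the Glud1 call depends on that choice. Averaging both ended the call (0.32, adjusted p = 0.0633). The Got1 call was lost after quantile normalization (-0.43, adjusted p = 0.10), without a variance trend (adjusted p = 0.0591) and with no filter (adjusted p = 0.052).

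**Figure D2:**
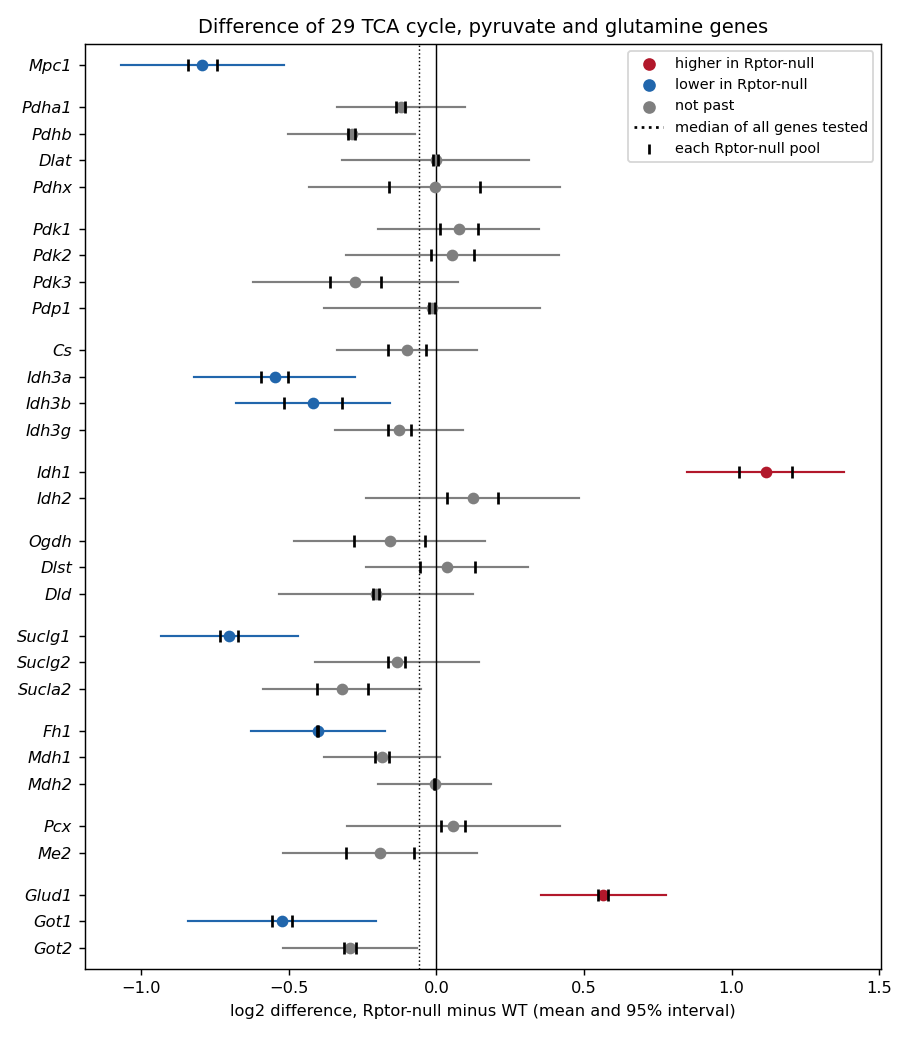
Log2 difference of each tested gene, Rptor-null minus WT, with points for the limma estimate, horizontal bars for its 95% interval and ticks for the 2 Rptor-null pools. Idh1 and Glud1 (red) lie right of 0 and Mpc1, Idh3a, Idh3b, Suclg1, Fh1 and Got1 (blue) left of it, while the dotted line marks the median of all genes at -0.059.

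The lower calls stood on arrays where T cell markers and cell cycle genes were lower (median log2 differences of -0.45 and -1.16) and 3′ to 5′ ratios were higher. The part of any of these in the member values was not tested. The position of the members among all genes at their own level is shown in the plot of level against difference.

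**Figure D3:**
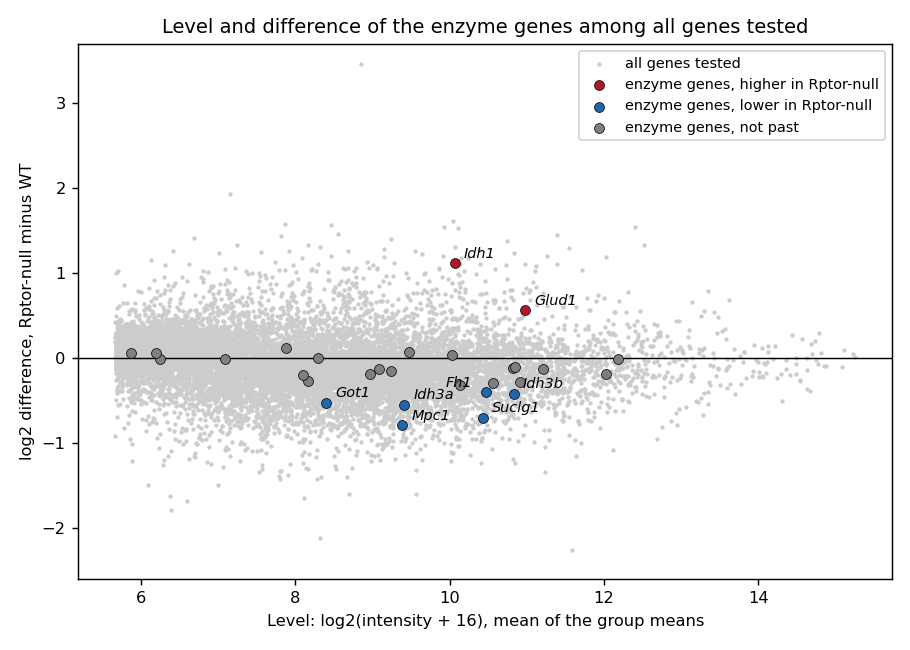
Log2 difference, Rptor-null minus WT, against the level of each gene, as log2(intensity + 16) averaged over the group means, for all 12725 genes tested (grey) and the 29 enzyme genes (coloured by call, with the 8 past the test named). The members lie inside the cloud of all genes, Idh1 near its upper edge at a log2 difference of 1.11.

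Probe sets of a gene often gave different sizes. Of the 61 member probe sets kept after the filter, 36 were below WT in both pools, 11 above and 14 split. Over all 27022 kept probe sets, these numbers were 11853, 9655 and 5514. Kept singly were 10 genes, among them Mpc1, Suclg1, Fh1 and Got1. All probe sets lay below WT in both pools for 8 genes and above it for 2, Idh1 and Idh2. They disagreed for 9, including Idh3a, Glud1, Me2 and Cs.

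For some genes a dimmer probe set showed the larger difference. A second probe set of Mdh1 read 2235 and 2247 in the Rptor-null pools and 3350 in the WT pool (log2 difference -0.58, adjusted p = 0.0175 over all kept probe sets). A dimmer probe set of Got2 read 127 and 136 against 225 (-0.71, adjusted p = 0.0457), and one of Mdh2 read 3213 and 3343 against 4234 (-0.37, adjusted p = 0.0502). The other Idh3g probe set read 1135 and 1141 against 1508 (-0.40, adjusted p = 0.0598). Cs had probe sets on both sides, 1491 and 1471 against 1313 for one and 628 and 612 against 817 for another. Where these probe sets lie along their transcripts was not given, and the part of the higher 3′ to 5′ ratios in their differences was not tested.

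**Figure D4:**
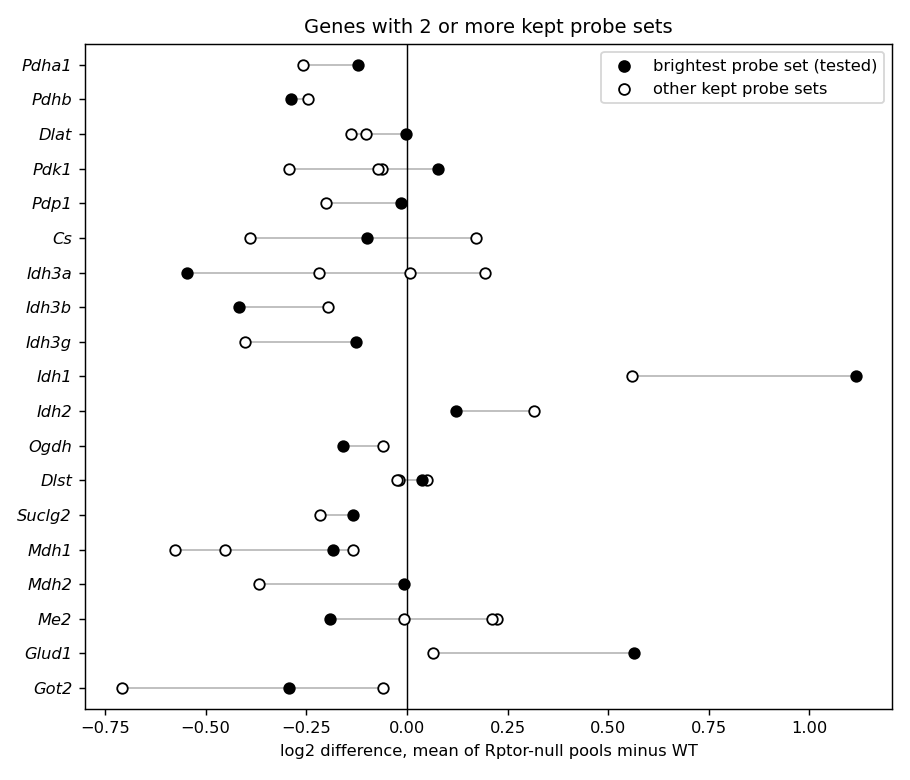
Log2 difference, mean of the Rptor-null pools minus WT, of every kept probe set for the genes with 2 or more, with the brightest (tested) probe set filled and the others open. Both Idh1 probe sets lie right of 0, while those of Idh3a and Cs lie on both sides of it.

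Other genes of the pathway, 50 in all, were set beside the members, of which 40 were tested. In this list 11 fell and 1 rose, and 28 did not pass. Lower calls were 27.5% of the list, beside 11.1% of all genes, and its median log2 difference was -0.23. Many of these genes were also bright. In bin 4 of the 5 bins of level 16.9% of all genes were called lower, and in the brightest bin 22%.

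Succinate dehydrogenase, which oxidizes succinate within the respiratory chain, had 2 of 4 subunits lower. Sdhd, a membrane anchor, read 1082 and 1079 in the Rptor-null pools and 1872 in the WT pool, 1.72-fold lower (adjusted p = 0.00457). Sdhb, the iron-sulfur subunit, read 1813 and 1791 against 2678, 1.48-fold lower (adjusted p = 0.00904). Sdha, the flavoprotein, read 1886 and 1740 against 1907 (adjusted p = 0.677), and Sdhc, the other anchor, 342 and 328 against 403 (adjusted p = 0.242).

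Carriers and neighbouring enzymes included the largest fall among the 40 tested genes of this list. Slc25a11, which exchanges alpha-ketoglutarate for malate across the inner membrane, read 328 and 352 in the Rptor-null pools and 646 in the WT pool, 1.86-fold lower (adjusted p = 0.00658). Slc1a5, a plasma membrane glutamine transporter, read 504 and 568 against 814 (1.51-fold lower, adjusted p = 0.0211). Pck2, which makes phosphoenolpyruvate from oxaloacetate in mitochondria, read 259 and 256 against 410.3 (1.56-fold lower, adjusted p = 0.0208), and without cross-matching probe sets its log2 difference was -0.25 (adjusted p = 0.467). Ldhb, a lactate dehydrogenase subunit, read 332 and 294 against 471 (1.48-fold lower, adjusted p = 0.0338).

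Glul, glutamine synthetase, was the gene of this list that rose, with 1153 and 1322 in the Rptor-null pools and 842 in the WT pool (1.46-fold, adjusted p = 0.0231). Averaging its probe sets ended that call (0.32, adjusted p = 0.129) as did a fit without a variance trend (adjusted p = 0.0715). The higher myeloid markers stood on the same arrays, and their part was not tested. The calls of Slc1a5 and Ldhb were lost after quantile normalization and without a variance trend, and that of Pck2 after quantile normalization. Averaging probe sets ended those of Slc1a5 and Pck2. The 5 other genes that fell, named after their values were seen, were Ldha, Hif1a, Slc25a12, Aldh18a1 and Acly, by 1.44-fold, 1.37-fold, 1.36-fold, 1.34-fold and 1.28-fold, Acly with an adjusted p that rounds to 0.05. Of these 12 calls, those of Sdhb, Sdhd and Slc25a11 passed under every alternative tested, and each of the others was lost under at least 1.

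**Figure D5:**
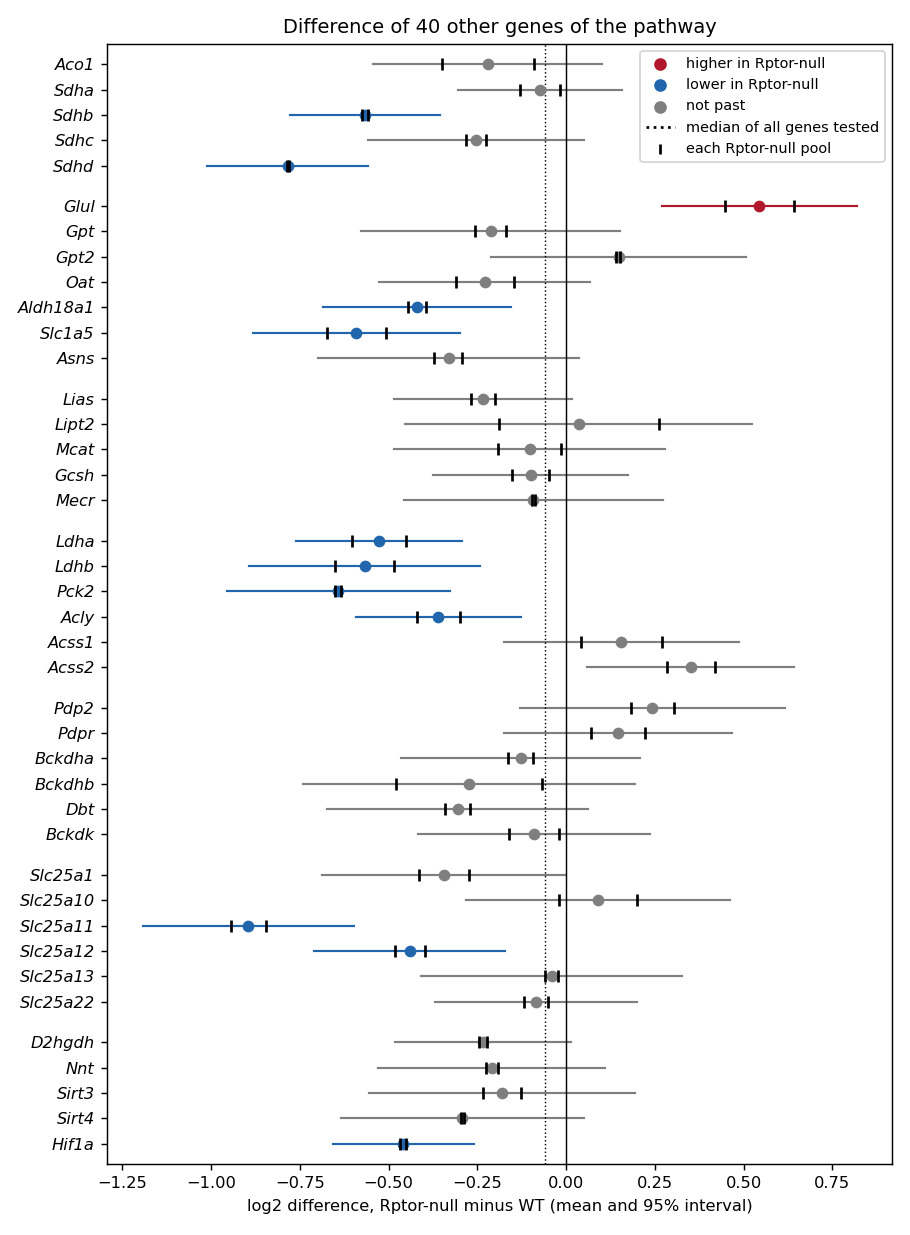
Log2 difference of the 40 other genes of the pathway that were tested, Rptor-null minus WT, drawn like the plot of member differences (points for estimates, bars for 95% intervals, ticks for the 2 Rptor-null pools). Slc25a11 and Sdhd lie furthest left, and Glul is the gene past the test on the right.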

How the data were processed

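Intensities per probe set, on a linear scale, were deposited by the authors in the value table of the series, already scaled or normalized. The submitters' processing notes list MAS5 with no version, and the background correction, scaling target and summary were not given in the sources used here. Median intensity was 55.0 and 54.9 on the Rptor-null arrays and 52.8 on the WT array. The number of arrays, not depth, limits the precision.

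Gene symbols came from the platform annotation, and a probe set with more than 1 symbol was not used for any gene. Values were taken as log2(intensity + 16), so folds understate changes of dim genes. The 64 control probe sets and those at or below the 40th percentile of level (34.8 intensity units) were left out, and the brightest of the 27022 kept probe sets stood for a gene. Brightness was the mean of the group means, so the choice drew on the Rptor-null values too. Differences were fitted with limma 3.58.1 in R 4.3.3 (lmFit, eBayes with a trend), two-sided, with Benjamini-Hochberg adjustment over 12725 genes and a threshold of 0.05. The spread had 1 residual and 6.46 prior degrees of freedom, all from the Rptor-null pools. The fit was tested on simulated data in which the WT array had the same spread as the Rptor-null arrays, so that assumption was not tested.

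Alternatives were other pseudocounts, filters, scalings, probe-set rules and variance priors, each Rptor-null array left out, and an adjustment over all kept probe sets that was added after seeing the data. Cross-matching probe sets were those named _a_at, _s_at or _x_at, and matches to other genes were not checked. All members were named, and of the other pathway genes up to 6 past the test in each direction, with the Sdh subunits; other genes that the rule lists are not reported here. The members and lists were chosen with earlier results of these data known, and the CpG count was added after the motifs had been searched.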

Additional observations from a re-analysis of the deposited data

How the results depend on the processing

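Of the members, Mpc1, Suclg1 and Idh1 kept their call and direction under each tested alternative that gave a value. Of 29 members tested, lower calls numbered 2 after quantile normalization and 2 without a variance trend, against 6. Over all genes 5.46% and 6.05% were called lower in these settings, against 11.1%. Adjusted over all kept probe sets, 3 lower member calls were left, with Idh3b, Fh1 and Got1 lost. No share of all genes was counted there. Higher member calls numbered 1 when a gene's probe sets were averaged and 1 without cross-matching probe sets. In the latter setting 22 members were tested, and Idh1, Mpc1, Idh3b and Fh1 were among those with no value. Members below WT in both arrays numbered 12 of 29 after quantile normalization, when 40.9% of all genes were below, beside 20 without it, when 48.7% were. The member median was -0.042 after quantile normalization and -0.081 after median centring, beside -0.008 and -0.006 over all genes. With either Rptor-null array left out the member median ranged from -0.163 to -0.105, beside -0.079 and -0.044 over all genes. The count below WT in the array kept ranged from 20 to 24 (56.1% and 59.8% of all genes). The count lower by at least 0.32 (log2) ranged from 6 to 7, and its share over all genes was not counted. No test was possible on 1 array a group.

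Over all genes, quantile normalization gave 695 lower beside 524 higher calls, against 1409 and 500. Without a variance trend there were 770 lower and 300 higher, and median centring gave 877 higher. Of the other pathway genes 4 were lower after quantile normalization, 7 after averaging probe sets, 5 without cross-matching ones and 4 without a trend. The main fit gave 11. Of all genes 5.46%, 10.6%, 8.87% and 6.05% were called lower in these settings, against 11.1%. The 1 higher call of the other pathway genes became 2 with median centring and 0 after averaging, without cross-matching ones and without a trend. Glul and Ldha, among others, had no value without cross-matching probe sets. The cause of these shifts was not tested.

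Directions turned after quantile normalization for Dlat (0.091), Pdp1 (0.013), Cs (0.017), Mdh2 (0.053) and Sdha (0.038), and after median centring for Dlat (0.051), Pdhx (0.047), Pdp1 (0.039) and Mdh2 (0.047). With the mean of probe sets they turned for Pdk1 (-0.088) and Me2 (0.060), and without cross-matching probe sets for Idh3a (0.0070). Without cross-matching probe sets, Idh3g, Mdh1 and Got2 became lower calls (-0.40, -0.58 and -0.71). Other, dimmer probe sets of these genes then stood for them. For Got2 that probe set read 127 and 136 in the Rptor-null pools against 225 in the WT pool. No paired analysis was possible because the WT group has 1 array and no replicate number.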

Other observations

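Several of these genes also make up the malate-aspartate shuttle, which carries reducing equivalents into mitochondria. This grouping was made after the values were seen and has no test. Of its 7 tested genes (Got1, Got2, Mdh1, Mdh2, Slc25a11, Slc25a12 and Slc25a13) 3 were lower past the test, beside 11.1% of all genes, and 0 were higher. The lower calls were Got1, in bin 3 of 5 by level, and Slc25a11 and Slc25a12, in bin 4. In bins 3 and 4 and in the brightest bin 10.3%, 16.9% and 22% of all genes were called lower. All 7 were below WT in both Rptor-null arrays, beside 48.7% of all genes, or 57.7% with the filter at the 60th percentile. The median log2 difference of the 7 was -0.29. Mdh2 belongs to the count below WT by a difference of -0.0060, which turned with both other scalings. Slc25a13 also lay close to WT, with 92.9 and 95.8 against 97.6 (-0.041, adjusted p = 0.89), and was not followed under other settings. The call of Slc25a12 was lost when its probe sets were averaged (-0.10, adjusted p = 0.679). That of Got1 was lost after quantile normalization, without a variance trend, with no filter and when adjusted over all kept probe sets.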
